A study of Mus musculus with 46 samples.

Results

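The EGF receptor (ErbB) family joins small growth factors to receptor tyrosine kinases at the cell surface, and its members were described here in 4 cell populations sorted from mouse kidney. The set was chosen by name and holds 10 genes of the 53465 in the table, namely 6 ligands (Egf, Hbegf, Areg, Tgfa, Ereg and Btc) and 4 receptors (Egfr, Erbb2, Erbb3 and Erbb4). All 10 were found. Wild-type mice, given in the study's methods as male C57BL/6 mice aged 8 to 12 weeks, underwent sham surgery, unilateral ureteric obstruction (UUO), in which the outflow of one kidney is blocked, or UUO followed by reversal (rUUO), in which the ureter is reimplanted and the kidney collected 14 days later. The design text gives UUO of 2 and 7 days, and the labels do not say which UUO sample belongs to which day, so that both may lie within the UUO groups. Cells were sorted as proximal tubule (PT) cells binding the lectin LTL, F4/80+ macrophages, CD31+ endothelial cells and PDGFRB+ stromal cells. The 44 samples used were 3 sham, 4 UUO and 3 rUUO for PT, 4, 4 and 3 for macrophages, 4, 3 and 4 for endothelial cells and 4, 4 and 4 for stromal cells, and values are FPKM, a fragment count scaled by transcript length and by the total mapped in the library. The design text gives 4 mice per group, and no label ties a sample to a mouse.

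Each ligand is made as a membrane-bound precursor that is cut free by proteases called sheddases, and binding makes the receptors pair and activate the RAS-ERK cascade. EGFR (Egfr) binds all 6 ligands, ERBB4 (Erbb4) also binds the neuregulins and some of them such as HB-EGF, betacellulin and epiregulin, ERBB3 (Erbb3) binds neuregulins and has little kinase activity of its own, and ERBB2 (Erbb2) has no known ligand and acts as a partner. In the kidney, Egf is made mainly by the thick ascending limb and distal convoluted tubule, beyond the proximal tubule.

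The sorted populations carried their defining markers. Adgre1, which encodes F4/80, lay between 151.76 and 247.4 FPKM in macrophages and at most 1.54 elsewhere. Pecam1, which encodes CD31, lay between 322.3 and 530.37 FPKM in endothelial samples and at most 13.67 elsewhere, and Pdgfrb lay between 92.89 and 257.79 FPKM in stromal samples and at most 6.75 elsewhere. Markers of distal nephron segments were also present in every population, and they are given beside Egf. FPKM sums per sample ranged from 586929 to 884982, and mitochondrial transcripts took 58.7 to 75.6% of the sum in PT samples and 20.2 to 45.8% in the others. Depth in reads is unknown, since the table holds no counts. In these bulk samples fewer cells of a type and less RNA per cell cannot be told apart.

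The promoters of Egf and Egfr are shown because these members had the largest log2 changes, in opposite directions, in stromal cells after UUO. 7 of the 10 members matched the promoter table. Both sequences are the 250 bases before the RefSeq start, on the strand of the gene and in the build GRCm38.p6. That of Egf is at chr3:129755323-129755572 on the minus strand, and that of Egfr at chr11:16751953-16752202 on the plus strand. Capitals mark a GC box (GGGCGG or, on the other strand, CCGCCC).
Egf: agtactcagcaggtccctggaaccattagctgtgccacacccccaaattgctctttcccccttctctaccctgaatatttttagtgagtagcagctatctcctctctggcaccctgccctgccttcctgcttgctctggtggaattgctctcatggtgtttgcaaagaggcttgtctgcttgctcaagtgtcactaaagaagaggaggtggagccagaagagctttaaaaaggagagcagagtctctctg
Egfr: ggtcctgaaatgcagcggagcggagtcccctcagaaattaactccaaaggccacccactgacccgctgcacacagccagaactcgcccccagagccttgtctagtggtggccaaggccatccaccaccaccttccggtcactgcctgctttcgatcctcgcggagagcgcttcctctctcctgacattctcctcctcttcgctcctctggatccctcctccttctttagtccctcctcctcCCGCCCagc
The Egf sequence is 50.4% G or C and the Egfr sequence 60.8%, where the median of 32851 such promoters was 52.4%. Egfr held 1 GC box, whose first base lies 9 bases before the start, and Egf held none; 32.7% of all promoters held it. Neither held the AP-1 motif (TGAGTCA or TGACTCA, in 4.46% of promoters), the CRE (TGACGTCA, in 1.55%) or TATAAA on either strand (in 12.4%). These are matches of letters in this window only. The Egf gene spans chr3:129677565-129755316 and Egfr chr11:16752203-16918158, as the table gives them.

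In sham kidneys the ligands were led by Egf in all 4 populations, and Erbb3 was highest in PT cells. A member was tested between sham populations where its mean over the sham samples was at least 1 FPKM, which 6 of the 10 members reached, by limma on log2(FPKM + 1) with an adjusted p threshold of 0.05. Of 36 tests, 24 were called. The mean was taken over all sham samples, so some low groups passed only through the populations in which the member was higher. These were Tgfa in macrophages and PT cells (at most 0.56 and 0.08 FPKM) and Hbegf and Erbb2 in macrophages (means 0.193 and 0.52). Erbb3 in endothelial cells (mean 0.948) was another. Calls that involve those groups are counted here and are read as values only. PT cells differed from macrophages in 4 of 6 members, where 64.9% of all genes did, from endothelial cells in 5 (62.3%) and from stromal cells in 4 (67.6%). Macrophages differed from endothelial cells in 4 members (45.7%) and from stromal cells in 5 (48.1%), and endothelial from stromal cells in 2 (24.2%). The median gene was lower in PT cells than in macrophages by 0.90 on the log2 scale, and PT values are to be read against that offset.

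Egf was 66.7 ± 13.5 FPKM in stromal sham samples (SD, n = 4), 53.1 ± 44.0 in endothelial samples (n = 4), 10.5 ± 2.53 in macrophages (n = 4) and 5.53 ± 2.13 in PT cells (n = 3). Stromal and endothelial samples did not differ beyond their spread (adjusted p = 0.278), nor did macrophages and PT cells (adjusted p = 0.072), and the sign of the latter difference turned when FPKM were rescaled without mitochondrial genes and after quantile normalization. PT cells were called lower than macrophages with TPM, FPKM rescaled to a common total (adjusted p = 0.0266), and without PT sham replicate 2 (adjusted p = 0.0415). Endothelial sham replicate 3 was high at 118.81 FPKM, and without it stromal samples exceeded endothelial samples (adjusted p = 0.00442). The same library had the highest summed thick ascending limb markers of the endothelial sham group, at 711 FPKM against 151 to 311 in the others. The part of such cells in the Egf level was not tested.

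Hbegf, which encodes heparin-binding EGF, was ordered differently from Egf, with 18.0 ± 1.92 FPKM in endothelial cells, 7.98 ± 2.67 in stromal cells, 2.55 ± 0.414 in PT cells and 0.193 ± 0.0634 in macrophages. All 6 pairs of populations were called, those with macrophages being read as values only. The PT and stromal pair was not called after quantile normalization (adjusted p = 0.964). Tgfa, which encodes transforming growth factor alpha, was 5.61 ± 3.02 FPKM in stromal cells and 4.18 ± 1.72 in endothelial cells, which did not differ (adjusted p = 0.726). Macrophages and PT cells were both low for Tgfa, at most 0.56 and 0.08 FPKM. Btc (betacellulin) ranged from 1.01 to 4.04 FPKM in stromal sham samples, from 0.42 to 1.19 in PT cells and from 0.14 to 1.07 in endothelial cells. Areg (amphiregulin) and Ereg (epiregulin) were listed at 0 in all stromal and PT sham samples.

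Among the receptors, Egfr in sham samples was 9.81 ± 4.76 FPKM in stromal cells and 9.36 ± 0.547 in PT cells, which did not differ beyond their spread (adjusted p = 0.964). It was 3.96 ± 5.07 FPKM in endothelial cells, where replicate 3 reached 11.42, and 1.44 ± 1.09 in macrophages; those also did not differ (adjusted p = 0.33). Endothelial cells were below PT cells (adjusted p = 0.0225) and stromal cells (adjusted p = 0.0398), calls that were lost without any of 5 and of 6 single samples and that were firmer without endothelial replicate 3 (adjusted p = 0.000473 and 0.000866). Erbb2 was 7.85 ± 1.67 FPKM in stromal cells, 6.23 ± 1.41 in PT cells, 5.49 ± 1.35 in endothelial cells and 0.52 ± 0.212 in macrophages. Macrophages passed the filter for it only through the others. The 3 higher populations did not differ in Erbb2, but PT cells exceeded endothelial cells after quantile normalization or without mitochondrial genes, and PT against stromal cells had no stable direction, PT cells being called lower with TPM (log2 difference -0.68) and higher after quantile normalization (0.94). Erbb3 was highest in PT cells at 9.33 ± 1.72 FPKM, above stromal cells at 2.04 ± 0.54, macrophages at 1.06 ± 0.0957 and endothelial cells at 0.948 ± 0.55, which did not differ among themselves (adjusted p = 0.0641 to 0.72). Stromal cells exceeded both with TPM and without mitochondrial genes, and exceeded endothelial cells also with no intensity trend and without endothelial sham replicate 3 (adjusted p = 0.0214). Erbb4 was 0.32, 0.38, 4.47 and 0.99 FPKM in endothelial sham cells, the high value being replicate 3. It was 0.93 to 2.38 FPKM in stromal cells, 0.09 to 0.47 in macrophages and 0.03 to 0.14 in PT cells.

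The receptors were also taken as shares of the summed FPKM of all 4, as a description with no test. In PT sham cells Egfr made up 35.3 to 42.3% and Erbb3 35.1 to 38.4%. In stromal cells Egfr made up 35.0 to 59.1% and Erbb2 26.2 to 45.2%, and in endothelial cells Egfr made up 10.6 to 46.8% and Erbb2 27.9 to 79.8%. Macrophages spread widely, with 8.46 to 58.6% for Egfr, 10.6 to 31.9% for Erbb2 and 22.8 to 45.5% for Erbb3, ranges that hold those of PT cells, and the stromal and endothelial ranges overlapped. These are sums over FPKM, a unit per length of transcript, and they say nothing about protein.

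**Figure D1:**
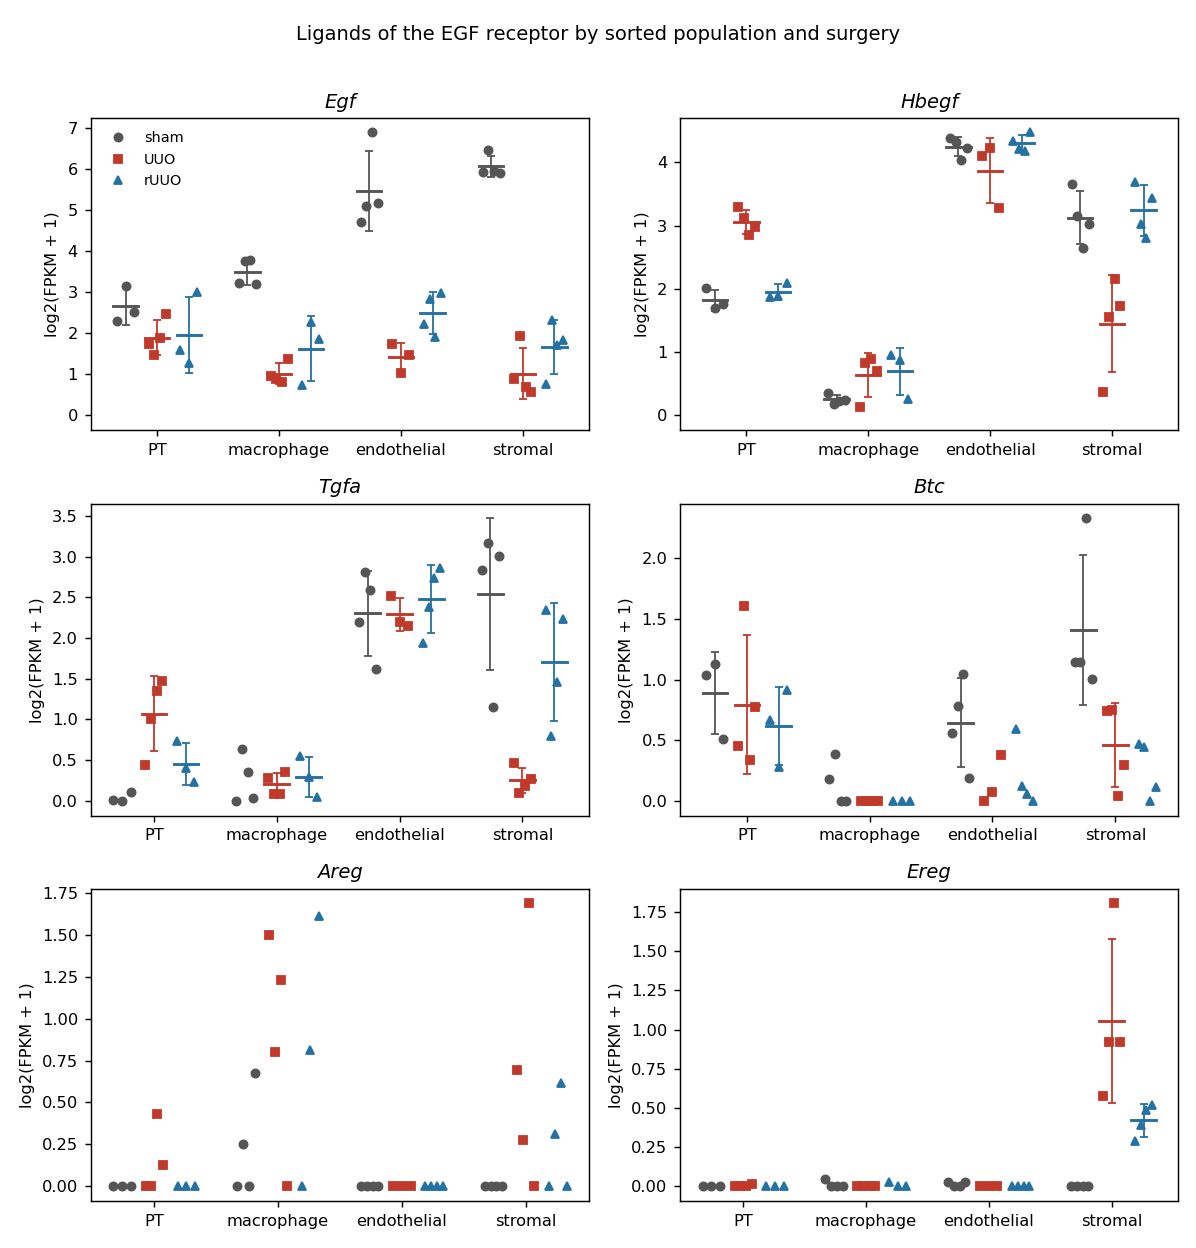
Each panel plots 1 ligand, with log2(FPKM + 1) on the vertical axis and the 4 sorted populations on the horizontal axis; each point is a sample (sham, UUO or rUUO), and the bar and whiskers are the mean and SD, left out where a sample of the group is listed at 0. Egf is lower after UUO and rUUO than in sham samples in macrophages, endothelial and stromal cells without overlap, while Hbegf in PT cells is higher after UUO.

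After UUO the ligand that changed most was Egf. In stromal samples it was 59.58, 86.87, 61.23 and 59.05 FPKM after sham surgery and 0.85, 2.81, 0.62 and 0.48 after UUO, a log2 change of -5.04 ± 0.37 (SE, adjusted p = 1.52e-07). In endothelial samples it was 25.11, 33.03, 118.81 and 35.35 FPKM in sham and 2.32, 1.05 and 1.76 in UUO, a log2 change of -4.06 ± 0.45 (adjusted p = 0.000162). Without sham replicate 3 this change was -3.58. The groups did not overlap in either population.
Macrophages went from 8.34, 12.51, 12.82 and 8.25 FPKM to 0.96, 0.84, 0.75 and 1.6, a log2 change of -2.49 ± 0.36 (adjusted p = 0.0012), again without overlap. In PT cells Egf was 3.95, 7.95 and 4.69 FPKM in sham and 2.33, 1.78, 2.69 and 4.58 in UUO, and those groups overlapped. Its log2 change of -0.77 ± 0.41 did not pass the test (adjusted p = 0.164), and only quantile normalization, of the alternatives run, brought it past (-1.32, adjusted p = 0.0247). The median of all genes tested in PT cells rose by 0.51 on the log2 scale after UUO, so relative to it Egf was 1.27 lower.

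Markers of the thick ascending limb and distal convoluted tubule were followed in the same samples. In stromal samples the summed FPKM of 5 thick ascending limb markers (among them Umod and Slc12a1) was 277 to 359 in sham and 29.0 to 54.3 in UUO, all 5 having fallen, and that of 5 distal convoluted tubule markers was 106 to 271 and then 4.02 to 9.27, again with all 5 having fallen. Endothelial and macrophage samples had 151 to 711 and 47.4 to 68.8 FPKM of thick ascending limb markers in sham, against 55.9 to 181 and 16.0 to 38.7 in UUO, with 2 of 5 and 0 of 4 tested markers called lower. In PT samples that sum was 22.4 to 27.8 FPKM and then 146 to 190, with 2 of 5 markers called higher, while distal convoluted tubule markers there summed to 17.5 to 31.9 and then 20.9 to 40.6, with 0 of 3 tested called by limma. Egf as a percent of the thick ascending limb sum was 16.4 to 25.3 in stromal sham samples and 1.30 to 5.17 after UUO, and in PT samples 16.9 to 31.1 and 1.22 to 2.74. Of the distal convoluted tubule sum it was 22.6 to 59.5% and then 6.69 to 34.3% in stromal samples, 55.8 to 63.3% and then 4.72 to 12.4% in endothelial samples, and 14.7 to 35.1% and then 6.63 to 15.4% in PT samples. In macrophages it was 20.05 to 49.0% in sham and 12.5 to 54.2% in UUO. The sham and UUO ranges of the distal convoluted tubule percent overlapped in stromal, PT and macrophage samples and were apart only in endothelial samples. Those of the thick ascending limb percent were apart in all 4 populations. The part of these cells in the change of Egf was not tested.

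**Figure D2:**
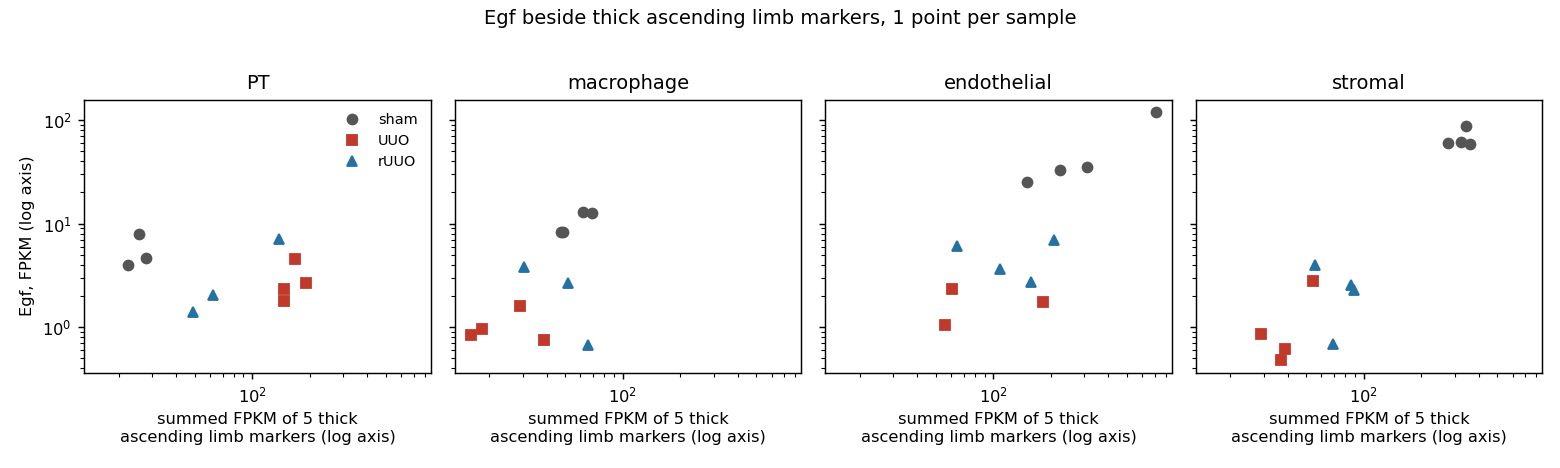
Egf in FPKM (vertical, log axis) is plotted against the summed FPKM of 5 thick ascending limb markers (horizontal, log axis) for each sample, with 1 panel per population. Sham samples lie at 16.4 to 25.3% of that sum in stromal cells and UUO samples at 1.30 to 5.17%, and in PT cells the UUO samples lie to the right of the sham samples and not higher.

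Hbegf moved in opposite directions in PT and stromal cells. In PT cells it was 3.02, 2.25 and 2.37 FPKM in sham and 8.76, 7.72, 6.19 and 6.91 in UUO, every UUO sample being higher. The log2 change was 1.24 ± 0.25 (adjusted p = 0.00211), 0.73 above the median of all genes. After quantile normalization, which takes that shift of the median out, it was 0.64 and did not pass (adjusted p = 0.0931). In the same samples PT markers summed to 2829 to 3778 FPKM in sham and 911 to 1280 in UUO, with 7 of 8 called lower, and collecting duct markers to 28.7 to 42.9 and then 428 to 570, with 6 of 8 tested called higher. Their part in the Hbegf change was not tested.
In stromal cells Hbegf was 11.63, 7.90, 5.26 and 7.14 FPKM in sham and 0.29, 1.93, 3.47 and 2.31 in UUO, a log2 change of -1.67 ± 0.38 (adjusted p = 0.00395). Those groups did not overlap either. In endothelial cells, where Hbegf was highest, it lay between 15.45 and 19.84 FPKM in sham and between 8.67 and 17.68 in UUO and did not pass the test (log2 change -0.38 ± 0.26, adjusted p = 0.588). Endothelial markers within the stromal samples were lower in the same samples, with a sum of 147 to 194 FPKM in sham and 39.6 to 73.7 in UUO and 4 of 7 tested called lower, and their part in the Hbegf change was not tested.

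Tgfa fell in stromal cells from 6.13, 8.03, 1.23 and 7.05 FPKM to 0.38, 0.07, 0.13 and 0.20, a log2 change of -2.29 ± 0.47 (adjusted p = 0.00172). The UUO group averaged 0.195 FPKM, and Tgfa passed the filter of 1 FPKM there through the sham and rUUO samples. Its call is therefore counted and read as values only. No UUO sample reached the lowest sham sample, replicate 3. In the same stromal samples collecting duct markers summed to 113 to 243 FPKM in sham and 7.46 to 22.1 in UUO, with 9 of 9 called lower, and podocyte markers to 167 to 278 and then 57.3 to 118, with 4 of 5 called lower. These moved beside the stromal values of Tgfa, Erbb3 and Erbb4 alike, as did the endothelial markers, and their part was not tested. In endothelial cells Tgfa was 2.08 to 6.03 FPKM in sham and 3.45 to 4.74 in UUO (log2 change -0.02 ± 0.37, adjusted p = 0.996). In PT cells it averaged under 1 FPKM and did not enter the main test. Its values there were 0.08 at most in sham and 0.36 to 1.78 in UUO. With the filter lowered to 0.1 FPKM the log2 change was 1.03. Tgfa passed that filter only through UUO and rUUO samples, so this is a value and no more.

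The remaining ligands were low. Ereg was listed at 0 in all 4 stromal sham samples and at 0.49, 0.89, 2.50 and 0.89 FPKM in stromal UUO samples, and it was at most 0.03 FPKM in the other populations. It passed only the lower filter, through the UUO and rUUO samples and against a sham group listed at 0. Its log2 change of 1.05 is therefore a value and no more. Areg was listed at 0 in all 11 endothelial samples and ranged up to 2.23 FPKM in stromal UUO and 2.06 in macrophage rUUO samples, with zeros in each of those groups. Btc in stromal cells went from between 1.01 and 4.04 FPKM to between 0.03 and 0.68, without overlap, and did not pass with the lower filter (adjusted p = 0.0546). After reversal it was 0.38 FPKM at most, again below every sham sample. Its log2 change from sham was then -1.15, which passed in limma with the lower filter (adjusted p = 0.0304). With no filter that change did not pass (adjusted p = 0.101).

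Of the receptors, Egfr rose strongly in stromal cells. It was 5.5, 9.32, 16.55 and 7.85 FPKM in sham and 64.78, 66.12, 32.47 and 71.28 in UUO, a log2 change of 2.50 ± 0.30 (adjusted p = 1.4e-05). The lowest UUO sample, replicate 3, was above the highest sham sample. Egfr did not pass in PT cells (9.01 to 9.99 FPKM in sham, 5.41 to 15.39 in UUO, adjusted p = 0.766), in macrophages (adjusted p = 0.751) or in endothelial cells (adjusted p = 0.86). Stromal markers were high in the same samples, with a sum of 1430 to 3157 FPKM in sham and 9285 to 15113 in UUO and 6 of 8 markers called higher and 1 lower, while Pdgfrb itself was 157.08 to 257.79 and then 92.89 to 174.43. Their part in the change of Egfr was not tested.

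Erbb2 did not pass in stromal cells, at 6.81 to 10.33 FPKM in sham and 4.45 to 9.06 in UUO (log2 change -0.09 ± 0.28, adjusted p = 0.851). Nor did it pass in PT cells (log2 change 0.39 ± 0.28) or endothelial cells (-0.33 ± 0.32). Erbb3 fell in stromal cells, from 2.39, 1.43, 1.74 and 2.58 FPKM to 0.28, 0.66, 0.78 and 0.10, a log2 change of -1.07 ± 0.36 (adjusted p = 0.0372). Every UUO sample lay under 1 FPKM (mean 0.455), and Erbb3 passed the filter there through the sham and rUUO samples. Its call is therefore counted and read as values only. That call was lost after quantile normalization (adjusted p = 0.112), with the replicate block, with no filter on low values and when any of 6 single samples was left out (adjusted p up to 0.094): stromal sham replicates 1 to 4 and UUO replicates 1 and 4. In PT cells, where Erbb3 was highest, it was 7.47 to 10.87 FPKM in sham and 7.86 to 16.21 in UUO (adjusted p = 0.517).
Erbb4 was 0.03, 0.05 and 0.14 FPKM in PT sham and 0.94, 2.73, 0.92 and 0.87 in PT UUO samples. With the lower filter its log2 change was 1.07. The mean of the PT sham group lay under that filter, so this is a value and no more. The collecting duct and PT markers given beside Hbegf moved in the same PT samples, and their part was not tested. In stromal cells Erbb4 was 0.93 to 2.38 FPKM in sham and 0.01 to 0.63 in UUO, with a log2 change of -0.96 at the lower filter (adjusted p = 0.0301).

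**Figure D3:**
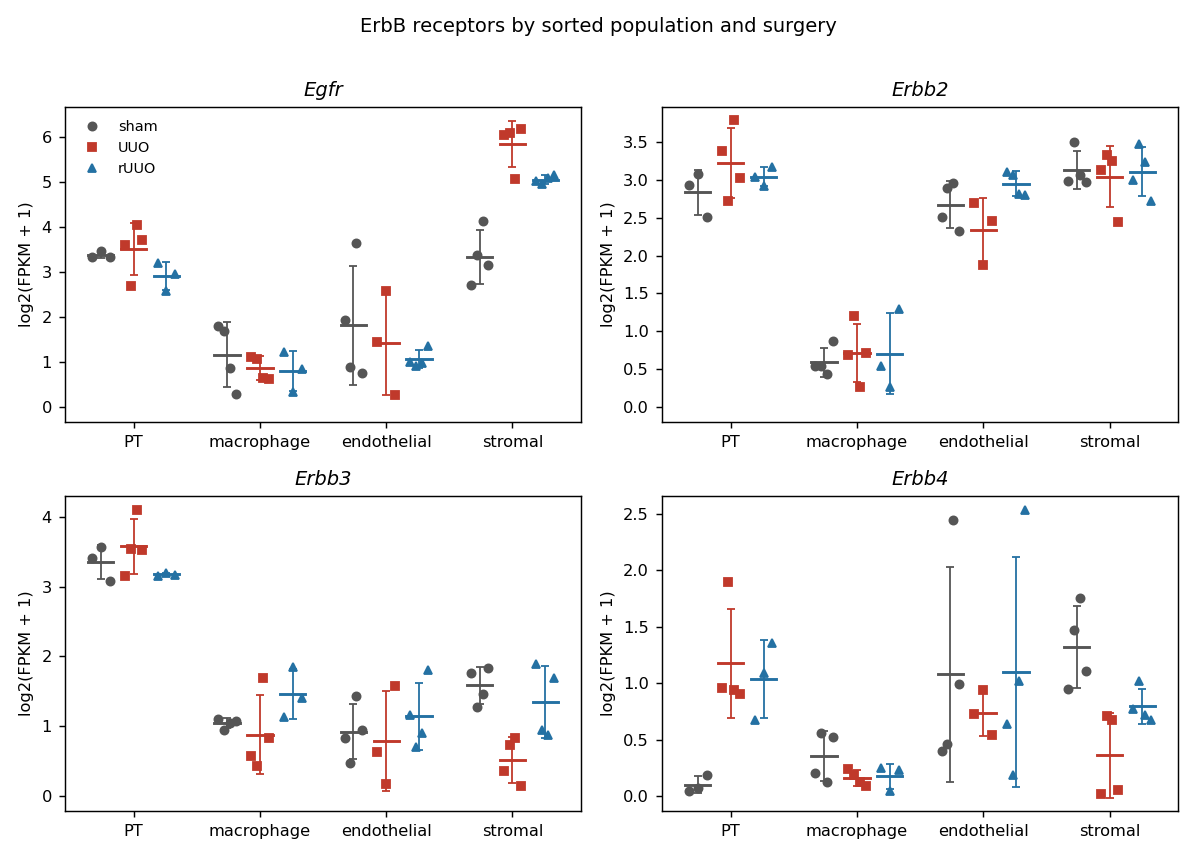
Each panel plots 1 receptor as log2(FPKM + 1) by population, with 1 point per sample and the mean and SD of each group. Stromal Egfr spans 5.5 to 16.55 FPKM after sham surgery, 32.47 to 71.28 after obstruction and 29.7 to 34.7 after reversal, and Erbb3 is highest in PT cells under each surgery.

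Counted over the members, UUO against sham gave 8 calls in 21 tests. PT cells had 1 of 5 tested members called, higher, where 32.8% of all genes were called. Macrophages had 1 of 3 called, lower (4.99% of genes), and endothelial cells 1 of 7, lower (1.98%). Stromal cells had 5 of 6 called, 1 higher and 4 lower, where 26.4% of genes were called. Those of Tgfa and Erbb3 are counted only, their UUO means being 0.195 and 0.455 FPKM. The median log2 change over the tested members was 0.23 in PT cells, -0.30 in macrophages, -0.34 in endothelial cells and -1.37 in stromal cells, beside 0.51, -0.03, 0.03 and -0.07 for all genes. In PT cells 85.0% of the called genes rose, a share that was 70.2% without mitochondrial genes and 51.8% after quantile normalization, where the median change of all genes was 0.32 and -0.02. In stromal cells the share was 50.8%, and 39.2% without mitochondrial genes, where the median was -0.25.

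The ligand and receptor make-up also differed by surgery. The summed FPKM of the 6 ligands was 71.8 to 104 in stromal sham and 3.30 to 8.98 in UUO samples, and Egf made up 75.8 to 85.3% of it and then 6.90 to 42.6%. The summed receptors were 15.7 to 28.0 FPKM and then 42.4 to 76.5, with Egfr making up 76.7 to 94.0% after UUO. In PT cells the ligand sum was 7.56 to 11.4 FPKM in sham, led by Egf, and 11.04 to 14.1 in UUO, led by Hbegf at 49.1 to 74.1%.

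After reversal, Hbegf had gone back towards its sham level in both populations in which it had moved. In PT rUUO samples it was 2.66, 2.69 and 3.27 FPKM, below every UUO sample, with a log2 change against UUO of -1.11 ± 0.25 (adjusted p = 0.0286) and against sham of 0.13 ± 0.27 (adjusted p = 0.832). In stromal rUUO samples it was 11.89, 7.11, 6.00 and 9.85 FPKM, above every UUO sample, with a log2 change against UUO of 1.79 ± 0.38 (adjusted p = 0.0173) and against sham of 0.12 ± 0.38 (adjusted p = 0.889). Both calls against UUO were lost with the replicate block, which left 0 calls, and with no filter on low values. That of PT cells was also lost without mitochondrial genes, after quantile normalization and without any of 6 single samples (UUO replicates 1 to 4, rUUO replicates 2 and 3), where its adjusted p reached 0.0893. That of stromal cells was lost without rUUO replicate 1 or 6, where it reached 0.0549. In PT rUUO samples collecting duct markers summed to 193 to 287 FPKM and PT markers to 1606 to 2175. Both lay between their UUO and sham ranges. In stromal rUUO samples endothelial markers summed to 66.5 to 127 FPKM (39.6 to 73.7 in UUO). Podocyte markers there summed to 108 to 157 (57.3 to 118) and collecting duct markers to 7.53 to 18.3 (7.46 to 22.1). The part of these in the Hbegf changes was not tested.

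Egf stayed low after reversal. It was 0.69, 3.98, 2.30 and 2.58 FPKM in stromal rUUO samples, a log2 change against sham of -4.40 ± 0.37 (adjusted p = 1.1e-06), and 3.66, 6.09, 2.73 and 6.94 in endothelial samples, a change of -2.99 ± 0.42 (adjusted p = 0.00103). In macrophages it was 0.68, 3.81 and 2.64 FPKM (log2 change -1.87 ± 0.39, adjusted p = 0.0157), a call lost with the replicate block or no filter, and without sham replicate 2 or rUUO replicate 1 (adjusted p up to 0.0798). None of these groups overlapped with sham. In endothelial cells every rUUO sample lay above every UUO sample for Egf, though the log2 change of 1.07 ± 0.45 did not pass (adjusted p = 0.443). Thick ascending limb markers in stromal rUUO samples summed to 55.7 to 89.0 FPKM, between the UUO range and the sham range, while Egf was 1.00 to 7.14% of that sum. In PT cells Egf was 2.04, 1.41 and 7.05 FPKM and did not pass (adjusted p = 0.386).

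Egfr in stromal cells was 31.06, 29.70, 32.68 and 34.70 FPKM after reversal, higher than sham in every sample (log2 change 1.71 ± 0.30, adjusted p = 0.000749). Its difference from UUO, -0.79 ± 0.30, did not pass (adjusted p = 0.15) but did so without UUO replicate 3, the low sample of that group (-1.05, adjusted p = 0.0401). Tgfa in stromal rUUO samples was 4.08, 0.74, 1.75 and 3.72 FPKM, above every UUO sample, though the change of 1.46 ± 0.47 against UUO did not pass (adjusted p = 0.0942). Without sham replicate 3 it passed (adjusted p = 0.0446), and then Tgfa was also lower than sham (-1.30, adjusted p = 0.0449). The change against UUO is read as values only, since the UUO group averaged 0.195 FPKM. Ereg was 0.22, 0.31, 0.40 and 0.43 FPKM, between the sham and UUO values in every sample.
Egfr in PT rUUO samples was 8.11, 4.97 and 6.79 FPKM, below each sham sample, and did not pass (adjusted p = 0.455). For rUUO against UUO, 1 of 5 members was called in PT cells (3.83% of genes) and 1 of 6 in stromal cells (4.17%). None of 7 was called by limma in endothelial cells (0.0597%), with 1 member, Egf, at an unadjusted p under 0.05. In macrophages none of 3 was called, where limma called 0% of genes and 945 had an unadjusted p under 0.05, none of them a member. Against sham, rUUO gave 0 of 5 in PT cells (7.46% of genes), 1 of 3 in macrophages (3.44%), 1 of 7 in endothelial cells (1.77%) and 2 of 6 in stromal cells (17.2%). The contrasts of one population share their samples and are not independent.

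**Figure D4:**
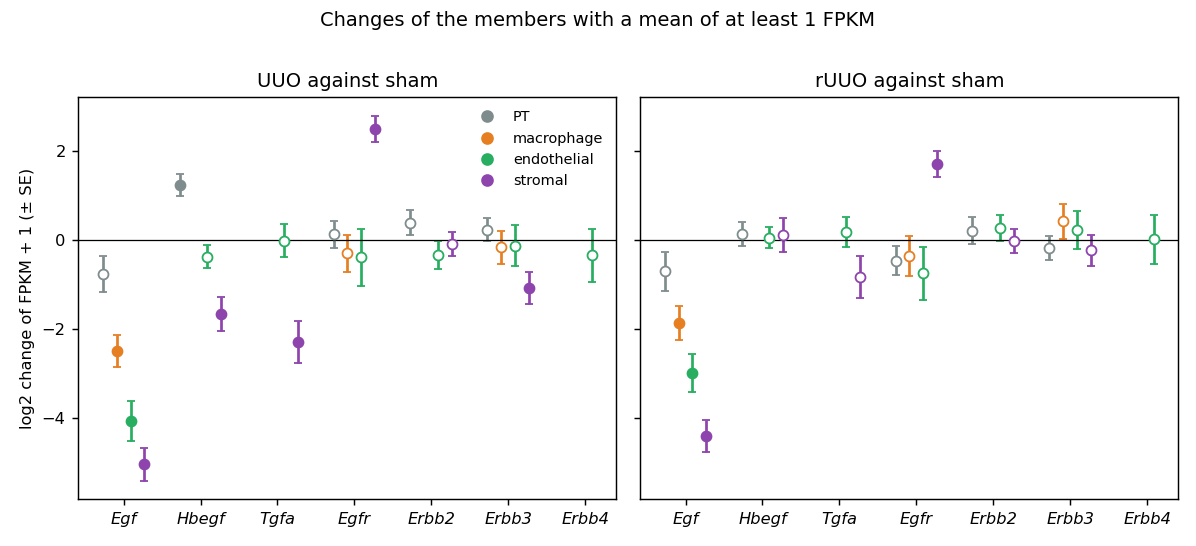
Log2 changes of FPKM + 1 with their SE are plotted for each member with a mean of at least 1 FPKM in a population, for UUO and rUUO against sham; filled points passed an adjusted p of 0.05. Stromal Egfr is at 2.50 and 1.71 and stromal Egf at -5.04 and -4.40, while stromal Hbegf and Tgfa are filled only for UUO.

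Whether the response to UUO differed between populations was tested on the difference of the changes, for 6 members and 6 pairs of populations jointly. A member entered by its mean over all 44 samples, so that Tgfa, which averaged 0.594 FPKM in PT cells and 0.198 in macrophages, and Hbegf and Erbb2, at 0.463 and 0.632 in macrophages, entered through the populations in which they were higher. In stromal UUO samples Tgfa and Erbb3 averaged 0.195 and 0.455 FPKM. Differences that involve those low groups are given with the counts and are read no further. Of 36 tests 15 were called. PT and stromal cells differed in 5 of 6 members, where 29.2% of genes did, macrophages and stromal cells in 4 (16.2%) and endothelial and stromal cells in 3 (13.1%). PT cells differed from endothelial cells in 2 (11.1%) and from macrophages in 1 (15.5%), and macrophages and endothelial cells in 0 by limma (2.31%), with 1 member, Egf, at an unadjusted p under 0.05. Egfr rose more in stromal cells than in PT cells by 2.37 on the log2 scale (PT minus stromal -2.37 ± 0.64, adjusted p = 0.00467), than in macrophages (-2.80 ± 0.62, adjusted p = 0.00113) and than in endothelial cells (-2.88 ± 0.64, adjusted p = 0.00159). Hbegf differed by 2.91 between PT and stromal cells (adjusted p = 4.24e-07). The fall of Egf was smaller in PT cells than in stromal cells by 4.28 (adjusted p = 4.06e-07), and that difference was 0.98 and did not pass between endothelial and stromal cells (adjusted p = 0.307). The call of Egf between PT cells and macrophages (1.72, adjusted p = 0.0416) was lost under 5 alternatives (adjusted p up to 0.33) and without any of 9 of 15 single samples (up to 0.107): PT sham replicates 1 and 4, PT UUO replicates 3 and 4, macrophage sham replicates 2 and 3 and macrophage UUO replicates 1 to 3. PT changes include the shift of 0.51 in the median of all genes.

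The neuregulins and the genes that act with or after the receptors were read from 5 lists of 68 genes. Nrg1, which encodes a ligand of ERBB3 and ERBB4, rose in PT cells from between 1.24 and 5.37 FPKM to between 4.12 and 9.14 (log2 change 1.12 ± 0.39, adjusted p = 0.0403) and in stromal cells from between 0.80 and 1.12 to between 1.28 and 6.21 (1.25 ± 0.39, adjusted p = 0.027). The PT ranges overlapped, and the PT change includes the shift of 0.51 in the median of all genes. The stromal sham values of Nrg1 lay near the filter of 1 FPKM. Of the 5 ligands in its list, which also holds Epgn and the other neuregulins, 2 were tested in PT cells and 1 in stromal cells. Over all 68 genes, UUO against sham called 23 higher and 3 lower of 57 tested in PT cells (32.8% of all genes were called), 7 and 3 of 52 in macrophages (4.99%), 5 and 0 of 60 in endothelial cells (1.98%), and 20 and 6 of 62 in stromal cells (26.4%). Against sham, rUUO gave 10 and 2 in PT cells (7.46% of all genes), 7 and 3 in macrophages (3.44%), 7 and 0 in endothelial cells (1.77%) and 20 and 5 in stromal cells (17.2%). Between rUUO and UUO there were 0 and 1 in PT cells (3.83% of all genes) and 1 and 3 in stromal cells (4.17%). None was called by limma in endothelial cells (0.0597%) or macrophages (0%).

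Among 10 sheddases and their partners, stromal cells had 4 of 9 tested genes called higher after UUO and none lower, where 26.4% of all genes were called. Adam12 and Adam19, members of the ADAM family of metalloproteases, rose by 3.17 ± 0.20 and 2.42 ± 0.25 on the log2 scale (adjusted p = 5.46e-08 and 3.84e-06). After reversal both were lower than in UUO (log2 change -1.54 ± 0.20 and -1.33 ± 0.25). Macrophages had Adam8 higher (1.95 ± 0.33, adjusted p = 0.00427). In PT cells Timp3, an inhibitor of metalloproteases, fell by 1.17 on the log2 scale (adjusted p = 8.08e-05), and Adam15 rose by 0.86 (adjusted p = 0.031).

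Among 21 adaptors and kinases, PT cells had 5 higher and 0 lower of 21 tested after UUO, a smaller share than the 32.8% of all genes. They were led by Stat3 (2.61 ± 0.26), a transcription factor activated by cytokine and growth factor receptors, and Mapk3 (1.97 ± 0.26), which encodes ERK1. Stromal cells had 2 higher and 3 lower of 21, close to the 26.4% of all genes, led by Nras (1.36 ± 0.18) and Stat3 (1.06 ± 0.19). Their medians, 0.54 and 0.01, lay near those of all genes, 0.51 and -0.07. Macrophages had Gab1, an adaptor, higher (1.81 ± 0.35, adjusted p = 0.0101).

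The inhibitors of the receptors and of ERK signalling moved apart in PT and stromal cells at Errfi1, which encodes MIG6, a feedback inhibitor that binds the EGFR kinase. Errfi1 was 104.78 to 128.73 FPKM in PT sham and 54.02 to 69.26 in PT UUO samples (log2 change -0.94 ± 0.21, adjusted p = 0.00392). In stromal cells it was 21.99 to 36.66 FPKM in sham and 74.26 to 141.82 in UUO (1.81 ± 0.22, adjusted p = 1.58e-05), and still 87.56 to 118.48 after reversal. Socs3, a suppressor of cytokine signalling, rose in all 4 populations, by 2.87 in PT cells, 1.5 in macrophages, 1.96 in endothelial cells and 2.60 in stromal cells. Of 18 listed inhibitors, 7 rose and 1 fell of 16 tested in PT cells, 1 and 1 of 11 in macrophages, 1 and 0 of 17 in endothelial cells and 4 and 2 of 17 in stromal cells, beside 32.8%, 4.99%, 1.98% and 26.4% of all genes called in either direction.

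Among the 4 lists of sheddases, adaptors, inhibitors and ERK-induced genes, that of 14 ERK-induced transcription factors and targets had the highest share of calls after UUO in each population. There 9 of 11 tested genes rose and 1 fell in PT cells (32.8% of all genes were called) and 4 rose and 2 fell of 12 in macrophages (4.99%). In endothelial cells 4 rose of 13 (1.98%), and in stromal cells 9 rose and 1 fell of 14 (26.4%). The medians of the list were 2.09, 0.81, 0.93 and 1.6 on the log2 scale, beside 0.51, -0.03, 0.03 and -0.07 for all genes. Jun and Ier3, an immediate-early transcription factor and an immediate-early gene, led in PT cells (3.17 ± 0.24 and 3.68 ± 0.30). Egr2, another such factor, rose in stromal cells (3.01 ± 0.20, adjusted p = 7.7e-08), while Ccnd1, which encodes cyclin D1, fell there by 2.04. In macrophages Ier3 and Fos rose by 3.00 and 1.20, and in endothelial cells Egr1 and Myc by 1.51 and 2.27. For rUUO against sham, 7 rose and 0 fell of 11 in PT cells (7.46% of all genes were called) and 5 rose and 3 fell of 12 in macrophages (3.44%). In endothelial cells 6 rose and 0 fell of 13 (1.77%), and in stromal cells 9 rose and 1 fell of 14 (17.2%). These genes also respond to signals other than ErbB receptors and to stress during the preparation of cells, and what moved them was not tested.

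**Figure D5:**
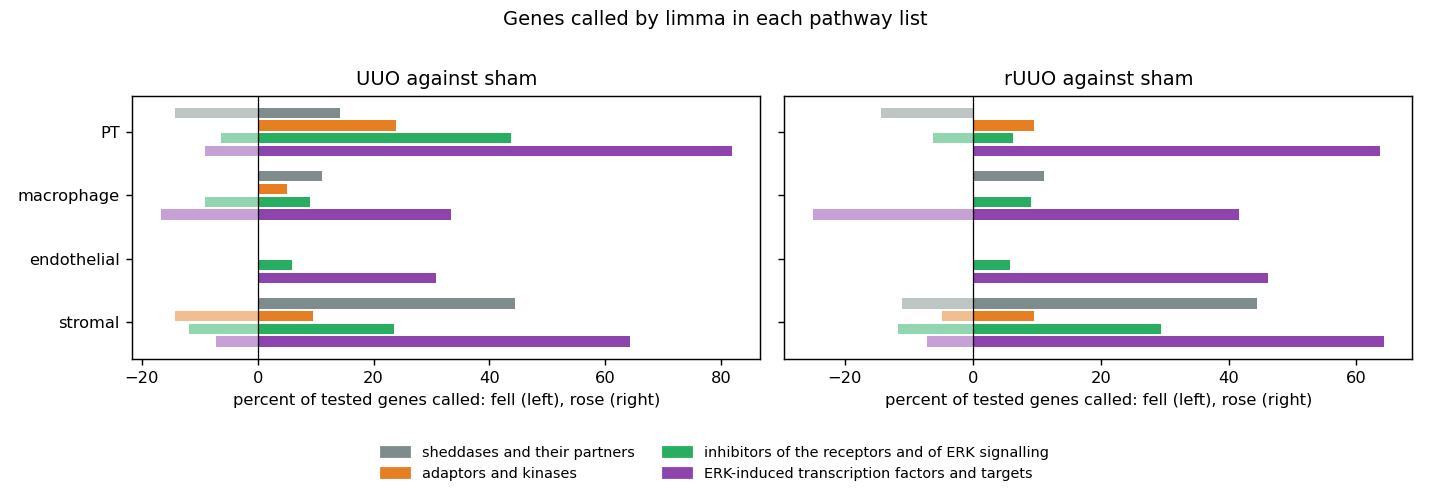
For 4 pathway lists and each population, bars give the percent of tested genes called higher (to the right) and lower (to the left, paler) for UUO and rUUO against sham. The list of ERK-induced genes has the longest bars to the right in each population and both contrasts, with 9 of 11 genes in PT cells and 9 of 14 in stromal cells after UUO.

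Genes with the most similar values to a member across the 44 samples were found among 14332 genes by Pearson's r of log2(FPKM + 1), which follows population and surgery alike and is a description only. Egf was most like Ppp1r1a (r = 0.88), Klk1 (0.88) and Calb1 (0.88), of which Ppp1r1a and Calb1 are in the lists of thick ascending limb and distal convoluted tubule markers. Hbegf was most like Ntn4 (0.94), Yes1 (0.91) and Shroom4 (0.91). Tgfa was most like Rapgef4 (0.91), Tspan15 (0.91) and Ccnjl (0.90). For Egfr the genes were Sdc2 (0.91), Ildr2 (0.90) and Bicc1 (0.89). For Erbb2 they were Phldb2 (0.93), Nectin3 (0.92) and Akap2 (0.91), and for Erbb3 Cpn1 (0.93), Ugt3a1 (0.91) and Hao2 (0.91).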

How the data were processed

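Values are FPKM as the authors deposited them, in a single table (build mm10, 2 decimals); processing notes of the submitters name FastQC, Bowtie2, RSEM and DESeq2 without roles. RNA was amplified before sequencing. Of 46 value columns 44 were used, since 2 columns carry the same sample name. For a PT sample whose title holds both surgeries, the treatment label (UUO) was followed. limma 3.58.1 (R 4.3.3, intensity trend) was run on log2(FPKM + 1) for each population, for sham samples and for differences of changes, with a mean FPKM of 1 or more required, Benjamini-Hochberg adjustment over all genes and a threshold of 0.05, and was tested on simulated data. This scale understates changes of low genes. Alternatives were a pseudocount of 0.1, filters of 0.1 FPKM and none, TPM, rescaling without 37 mitochondrial genes, quantile normalization, no trend, an added fold of 1.5, a replicate block, 1 model of all populations and leaving out each sample. All 10 members were named, with the 2 called pathway genes of smallest adjusted p per list and contrast from which examples are given, and the 3 genes most like each member with a mean of at least 1 FPKM. Members and lists were chosen with earlier results of these data known. p-values measure the spread between these samples.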

Additional observations from a re-analysis of the deposited data

Results flagged for a closer look

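In 7 of 73 groups of 4 or more samples 1 sample stood apart from the rest, where chance gives about 1 in 20. Egf was 86.87 FPKM in stromal sham replicate 2 (others 59.05 to 61.23), Tgfa 1.23 in stromal sham replicate 3 (6.13 to 8.03) and Btc 4.04 in the same sample (1.01 to 1.21). Egfr was 32.47 FPKM in stromal UUO replicate 3 (64.78 to 71.28) and Erbb4 2.73 in PT UUO replicate 2 (0.87 to 0.94), the sample whose title holds both surgeries. Ereg was 0.01 FPKM in PT UUO replicate 4 and 0.03 in macrophage sham replicate 1, the others being listed at 0. With the others tied at 0 any single value stands apart, so the rate of 1 in 20 does not apply to these Ereg groups.

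The log2 change after UUO differed between populations, by limma's test of the difference, in 15 cases. For Egf the difference was 1.72 for PT minus macrophage, 3.29 for PT minus endothelial, 4.28 for PT minus stromal and 2.56 for macrophage minus stromal cells. For Hbegf it was 1.62 for PT minus endothelial, 2.91 for PT minus stromal, 2.06 for macrophage minus stromal and 1.29 for endothelial minus stromal cells. For Tgfa it was 3.32, 2.24 and 2.28 for PT, macrophage and endothelial minus stromal cells, and for Egfr -2.37, -2.80 and -2.88. For Erbb3 it was 1.30 for PT minus stromal cells. The Egf difference of PT minus macrophage was lost under 5 alternatives (adjusted p up to 0.33) and without any of 9 of 15 single samples. The Hbegf difference of endothelial minus stromal cells was lost under 3 alternatives and without endothelial UUO replicate 1 or 2, stromal sham replicate 1 or stromal UUO replicate 1 (adjusted p up to 0.0888), that of PT minus endothelial cells under 2 alternatives, and the Erbb3 difference under 2 alternatives and without PT sham replicate 4, PT UUO replicate 3 or stromal UUO replicate 4 (up to 0.0732). Tgfa in PT cells and macrophages and Hbegf in macrophages averaged under 1 FPKM and entered only through the other populations, so their differences are values and no more. The stromal UUO means of Tgfa and Erbb3 were also low (0.195 and 0.455 FPKM). The same therefore holds for their differences from stromal cells.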

How the results depend on the processing

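No value called in the main tests changed direction. Erbb2 between PT and stromal sham cells, not called there, was called lower in PT cells with TPM and higher after quantile normalization. The 2 member calls of rUUO against UUO became 0 with no filter or with the replicate block, and 1 without mitochondrial genes or after quantile normalization. Leaving out 1 sample gave 1 to 3 calls there, 7 to 8 for UUO against sham, 3 to 5 for rUUO against sham, 22 to 27 between sham populations and 13 to 15 for differences of changes. All alternatives run kept 9 of 14 calls of surgery, 21 of 24 between sham populations and 11 of 15 differences of changes. With the replicate block there were 7 calls for UUO against sham, 3 for rUUO against sham, 24 between sham populations and 14 differences of changes. The block also called fewer of all genes, for UUO against sham 3311, 346, 101 and 3364 in PT, macrophage, endothelial and stromal samples. Without it these were 3747, 665, 265 and 3704. For rUUO against UUO it called 160 genes in PT and 116 in stromal cells, against 437 and 585. Counts of all genes in the fits without 1 sample are not given here, so those member counts stand without a background. Samples of the same number and population but other surgery deviated together with r over 0.1 in 1 of 35 pairs. For the same surgery and number in other populations this held in 2 of 57 pairs, with r up to 0.167. Among the 21 sham pairs of that kind it held in 2. The numbers were not taken to pair samples in the main tests, and whether 1 mouse gave several populations is unknown. With no filter limma warned that most residual variances were 0, which makes its p-values unreliable. Depth is unknown, so low values have no counting interval.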
